A study of Mus musculus with 12 samples.

Results

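The Frizzled genes Fzd1 to Fzd10 encode the seven-pass membrane receptors that bind Wnt ligands at the cell surface. The 10 members were taken by gene symbol. Every one was measured by 1 probeset, and they stand among 19938 mouse genes with an annotated probeset. Sorted mammary cells were hybridised to 12 Affymetrix arrays, 3 in each of 4 groups. The groups were Wnt4-deleted CD24 low cells (arrays 3, 11 and 15), WT CD24 low cells (arrays 1, 9 and 13), Wnt4-deleted CD24 high cells (arrays 4, 12 and 16) and WT CD24 high cells (arrays 2, 10 and 14), numbered as in the sample titles. Wnt4-deleted mice were MMTV::Cre+.Wnt4fl/fl.mT/mG and WT mice were MMTV::Cre+.Wnt4wt/wt.mT/mG, all females of 10 to 14 weeks. Both genotypes therefore carried the Cre transgene, which the MMTV promoter drives mainly in mammary epithelium, and the mT/mG reporter, whose GFP marks cells that have recombined. The cells were depleted of other lineages, gated on GFP and split by the surface protein CD24 into a CD24 low fraction, named myoepithelial in the labels, and a CD24 high fraction, named luminal. The labels speak of glands in one place and of grafts in another, and how many mice gave each sample is not given in the sources used here.

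Frizzled receptors bind Wnt through a cysteine-rich domain outside the cell, and pass the signal to Dishevelled inside it. With the co-receptors Lrp5 and Lrp6 they stabilise β-catenin, and with other partners they steer cell polarity and movement. The mouse genes fall by sequence into the subfamilies Fzd1, Fzd2 and Fzd7; Fzd5 and Fzd8; Fzd4, Fzd9 and Fzd10; and Fzd3 and Fzd6. In the mammary gland, Wnt signals are best known for maintaining basal cells with stem cell activity, and Wnt4 is a ligand that luminal cells make under progesterone.

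The fractions matched their names by markers. All 12 myoepithelial markers were called higher and all 12 luminal markers lower in CD24 low than in CD24 high cells, in both genotypes. The CD24 low fraction also varied in other cell types. The mean of 10 endothelial markers was 6.55, 9.27 and 8.94 on the log2 scale on Wnt4-deleted CD24 low arrays 3, 11 and 15, and 6.65, 8.14 and 8.88 on WT CD24 low arrays 1, 9 and 13. In CD24 high cells it lay between 5.18 and 6.45 in Wnt4-deleted cells and between 5.37 and 6.14 in WT cells. Skeletal muscle markers averaged 8.05 on array 3 and 7.09 on array 1, against at most 5.62 on any other array. Wnt4 itself read 6.11, 6.46 and 6.78 in Wnt4-deleted CD24 high cells and 7.42, 7.92 and 7.62 in WT CD24 high cells, a log2 change of -1.20 (SE 0.19, adjusted p = 0.416). In CD24 low cells it read 6.20, 6.66 and 6.28 in Wnt4-deleted cells and 6.49, 6.45 and 6.63 in WT cells. Where its probes lie in relation to the deleted exons was not checked.

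RefSeq promoter windows were held for 6 of the 10 members, and 3 of these are shown, chosen by array patterns described further on. Fzd7 had the largest difference between fractions, and Fzd1 was a called relative with the same direction of change. Fzd2, also a called relative, had no window. Fzd4 was low on the CD24 low arrays with the lowest endothelial marker means. Each is the 250 bases before the annotated gene start, 5′ to 3′ on the gene's strand, in GRCm38.p6. Capitals mark the TCF/LEF core CTTTGA and the CCAAT box, on either strand.
Fzd7, chr1:59481897-59482146 (+ strand): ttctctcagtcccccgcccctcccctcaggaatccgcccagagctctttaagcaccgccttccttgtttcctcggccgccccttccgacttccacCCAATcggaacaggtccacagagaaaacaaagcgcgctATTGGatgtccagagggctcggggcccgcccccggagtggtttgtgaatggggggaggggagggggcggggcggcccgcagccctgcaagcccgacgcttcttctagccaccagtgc
Fzd1, chr5:4758217-4758466 (- strand): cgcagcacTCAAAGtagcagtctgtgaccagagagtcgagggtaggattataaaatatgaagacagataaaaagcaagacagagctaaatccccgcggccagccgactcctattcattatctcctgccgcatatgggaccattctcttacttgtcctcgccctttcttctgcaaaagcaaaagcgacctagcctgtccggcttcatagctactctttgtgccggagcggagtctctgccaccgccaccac
Fzd4, chr7:89404116-89404365 (+ strand): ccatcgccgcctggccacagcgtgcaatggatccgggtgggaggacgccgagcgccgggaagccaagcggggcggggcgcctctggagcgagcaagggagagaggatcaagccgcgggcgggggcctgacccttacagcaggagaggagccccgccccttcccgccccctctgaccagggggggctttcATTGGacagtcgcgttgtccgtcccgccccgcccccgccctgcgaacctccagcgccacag
The Fzd1 window held the letters CTTTGA once, starting at base -242, and the Fzd7 and Fzd4 windows did not hold them. That core, 1 form of the site bound by the factors through which β-catenin acts, occurred in 13.8% of 32851 such windows of the mouse genome. Other forms of the site were not searched. The letters CTTTGT, read on either strand, are present in the printed Fzd7 and Fzd1 windows. The absence of CTTTGA therefore does not show that a window lacks a TCF/LEF site. The Fzd7 window held 2 CCAAT boxes and the Fzd4 window 1, a motif found in 33.8% of windows. The GC box GGGCGG occurred 6 times in Fzd7, 7 times in Fzd4 and not in Fzd1, against at least once in 32.7% of windows. GC content was 65.2% in Fzd7, 51.2% in Fzd1 and 72.8% in Fzd4, with a median of 52.4% over all windows. The windows of Fzd5, Fzd9 and Fzd10 had 76.4% GC, and none of them held the letters CTTTGA. The TATA letters TATAAA were present once in the Fzd1 window and in none of the other 5, against 12.4% of all windows. These are matches of letters, each counted on both strands, and factor binding was not measured.

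Every Frizzled gene was above the background level in all 4 groups. That level was set by 1231 olfactory, vomeronasal and taste receptor genes, whose 95th percentile lay between 4.95 and 5.05 in the 4 groups. All 40 group means of the 10 members were above it, and the lowest were 5.57 for Fzd8 in Wnt4-deleted CD24 high cells and 5.64 for Fzd9 in WT CD24 high cells. Ranked among all genes, Fzd9 stood between percentiles 43.4 and 47.2 in the 4 groups. Fzd8 stood at 43.7 in Wnt4-deleted and 48.6 in WT CD24 high cells. A mean above the background level therefore does not by itself show that a gene was expressed. Fzd7 covered the widest range over the 12 arrays, 3.74 log2 units, and Fzd6 the narrowest, 0.58. Probe sets differ in brightness, so the level of one Frizzled gene cannot be set against that of another.

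**Figure D1:**
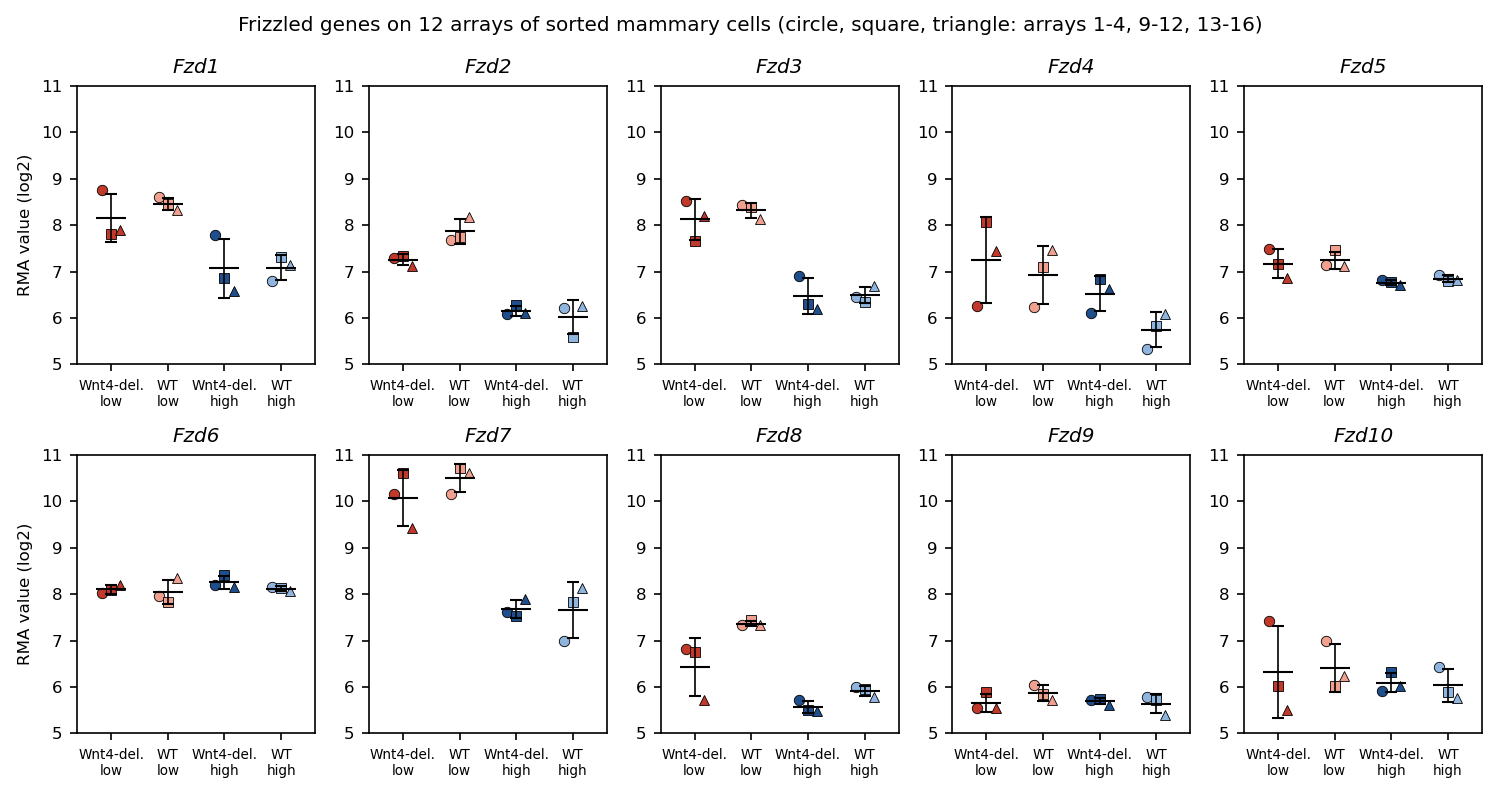
Normalised log2 values (RMA) of the 10 Frizzled genes, one panel per gene, with 3 arrays in each of Wnt4-deleted CD24 low, WT CD24 low, Wnt4-deleted CD24 high and WT CD24 high cells. Bars give the mean and SD, and symbols mark the runs of title numbers. Fzd7 stood between 9.43 and 10.72 on CD24 low arrays and between 6.98 and 8.14 on CD24 high arrays, whereas Fzd6 stayed between 7.84 and 8.41 on all 12.

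The first question was in which fraction the receptors were expressed. Fzd1, Fzd2, Fzd3, Fzd7 and Fzd8 rose in CD24 low over CD24 high cells in both genotypes. That is 5 of 10 members called higher in each genotype, where 8.22% of all genes were called higher in Wnt4-deleted cells and 8.21% in WT cells (limma, adjusted p under 0.05). No member was called lower, where 8.23% of all genes were in Wnt4-deleted and 7.93% in WT cells. In Wnt4-deleted cells the median log2 change of the family was 0.79, against -0.01 over all genes, and in WT cells 1.28, against -0.02. The arrays of the fractions did not overlap, with CD24 low above, for 5 members in Wnt4-deleted cells and for 7 in WT cells, where 14.2% and 15.7% of all genes did so. In these bulk samples, a smaller share of cells of one type and less RNA per cell cannot be told apart. The p-values rest on the spread between samples within groups, pooled over the 4 groups and moderated over all genes. Whether that is a spread between experiments is not known, since the labels tie no sample to one of the study's independent experiments.

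Fzd7 and its relatives Fzd1 and Fzd2 were all among them. Fzd7, a receptor known for its part in mammary stem cell activity, read 10.17, 10.61 and 9.43 in Wnt4-deleted CD24 low cells and 7.62, 7.52 and 7.89 in Wnt4-deleted CD24 high cells. WT cells gave 10.15, 10.72 and 10.62 in the CD24 low fraction and 6.98, 7.84 and 8.14 in the CD24 high fraction. The lowest CD24 low array, 15, was still above every CD24 high array. The log2 change was 2.39 (SE 0.33, 5.25-fold, adjusted p = 4.8e-04) in Wnt4-deleted cells and 2.84 (SE 0.33, 7.18-fold, adjusted p = 1.5e-04) in WT cells, the largest in the family in both.

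Fzd2, a receptor through which Wnt5a can act, read 7.30, 7.34 and 7.12 in Wnt4-deleted CD24 low cells and 6.08, 6.28 and 6.11 in Wnt4-deleted CD24 high cells. In WT cells the values were 7.69, 7.74 and 8.17 in the CD24 low fraction and 6.21, 5.59 and 6.25 in the CD24 high fraction. The fractions were well apart in both genotypes. Between fractions it changed by 1.09 (SE 0.19, 2.13-fold, adjusted p = 0.00218) in Wnt4-deleted cells and 1.85 (SE 0.19, 3.61-fold, adjusted p = 5.7e-05) in WT cells.

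Fzd1, which acts with Fzd2 in closing the mouse palate, read 8.75, 7.82 and 7.90 in Wnt4-deleted CD24 low cells and 7.78, 6.86 and 6.57 in Wnt4-deleted CD24 high cells. WT cells gave 8.60, 8.45 and 8.33 in CD24 low and 6.80, 7.31 and 7.15 in CD24 high cells. Array 4, the high one of the Wnt4-deleted CD24 high group, read just under the lowest CD24 low array, 7.82. On array 4 the myoepithelial markers also averaged 7.0, against 6.10 to 6.55 on the other CD24 high arrays, and their part in the value was not tested. Its log2 change between fractions was 1.08 (SE 0.31, adjusted p = 0.0365) in Wnt4-deleted cells and 1.37 (SE 0.31, adjusted p = 0.0112) in WT cells. The call in Wnt4-deleted cells was lost after median centring (adjusted p = 0.0518) and on the arrays of the compared groups only (0.132). It was also lost without array 3 (0.1), 9 (0.0528), 12 (0.112), 13 (0.0516), 14 (0.0513) or 16 (0.15).

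Fzd3, known for guiding axons, and Fzd6, which orients hair follicles in mouse skin, are close in sequence and differed here. Fzd3 read 8.53, 7.65 and 8.20 in Wnt4-deleted CD24 low cells and 6.91, 6.30 and 6.19 in Wnt4-deleted CD24 high cells. In WT cells it read 8.44, 8.39 and 8.13 in the CD24 low fraction and 6.46, 6.34 and 6.68 in the CD24 high fraction. Its groups did not overlap, and the log2 change was 1.66 (SE 0.24, adjusted p = 6.2e-04) in Wnt4-deleted cells and 1.83 (SE 0.24, adjusted p = 3.3e-04) in WT cells. Fzd6 had log2 changes of -0.15 (95% interval -0.46 to 0.15) in Wnt4-deleted cells and -0.07 (-0.37 to 0.24) in WT cells. Its 12 values all lay between 7.84 and 8.41, with the fractions overlapping in both genotypes.

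Fzd8, whose cysteine-rich domain is the one in which Wnt binding was first seen in a crystal structure, read 6.81, 6.76 and 5.72 in Wnt4-deleted CD24 low cells and 5.72, 5.50 and 5.49 in Wnt4-deleted CD24 high cells. WT cells gave 7.33, 7.44 and 7.33 in CD24 low and 6.0, 5.95 and 5.79 in CD24 high cells. The WT fractions were far apart. In Wnt4-deleted cells array 15 of the CD24 low group fell level with the highest CD24 high array. Fzd8 changed between fractions by 0.86 (SE 0.24, adjusted p = 0.0309) in Wnt4-deleted cells and 1.45 (SE 0.24, 2.74-fold, adjusted p = 0.00161) in WT cells. The call in Wnt4-deleted cells was lost on the arrays of the compared groups only (adjusted p = 0.133), with the level of non-epithelial markers as a covariate (0.117, at a larger log2 change of 0.98), on arrays 9 to 16 only (0.145), and without array 3 (0.0887), 11 (0.115), 12 (0.085) or 16 (0.101).

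Its relative Fzd5, needed for the maturation of Paneth cells in the mouse gut, was only slightly higher in CD24 low cells. It read 7.48, 7.16 and 6.86 in Wnt4-deleted CD24 low cells, against 6.70 to 6.81 in Wnt4-deleted CD24 high cells, and 7.14, 7.46 and 7.13 in WT CD24 low cells, against 6.80 to 6.93 in WT CD24 high cells. The fractions did not overlap in either genotype, but the change was small. It was 0.40 (SE 0.16) in both genotypes, and missed the threshold in Wnt4-deleted (adjusted p = 0.109) and WT cells (adjusted p = 0.119). The gene was called in WT cells with array weights (adjusted p = 0.0218), and in Wnt4-deleted cells without array 15 (0.0279).

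**Figure D2:**
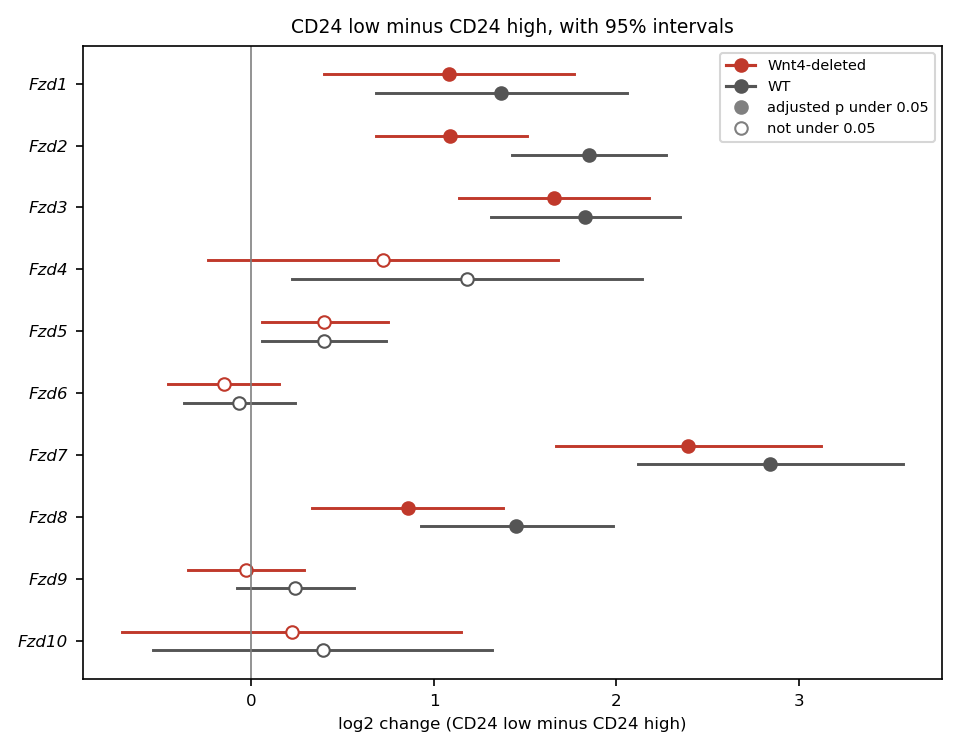
Log2 change of each Frizzled gene between CD24 low and CD24 high cells, with its 95% interval, in Wnt4-deleted cells (red, above) and WT cells (grey, below). Filled points are called in the test over all genes. The same 5 genes are filled in both genotypes, with Fzd7 at 2.39 and 2.84, and the intervals of Fzd6 include 0 in both.

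Fzd4, the receptor of Norrin in the retinal vasculature, followed a different course. It read 6.25, 8.06 and 7.44 in Wnt4-deleted CD24 low cells and 6.10, 6.85 and 6.63 in Wnt4-deleted CD24 high cells. WT cells gave 6.24, 7.09 and 7.46 in the CD24 low fraction and 5.34, 5.83 and 6.08 in the CD24 high fraction. Arrays 3 and 1 were low, and these were the CD24 low arrays with the lowest endothelial marker means, 6.55 and 6.65. They also had the lowest adipocyte marker means of that fraction, 5.4 and 5.45, and the lowest immune marker means, 4.88 and 5.06. Both belong to the run of title numbers 1 to 4, whose array read lowest for Fzd4 in every group. Run and cell content cannot be told apart there. Array 11 was highest of all arrays in Fzd4 and in the endothelial mean (9.27), and also in the pericyte (7.57) and adipocyte means (6.39). In CD24 high cells array 4 had the lowest endothelial mean, 5.18, yet its Fzd4 value of 6.10 was above every WT array. The log2 change between fractions was 0.72 (SE 0.44, adjusted p = 0.334) in Wnt4-deleted cells, where the arrays overlapped, and 1.18 (SE 0.44, adjusted p = 0.0993) in WT cells, where they did not. With the level of non-epithelial markers (endothelial, fibroblast and immune) as a covariate these values became -0.51 and 0.14. Those markers were themselves higher in CD24 low cells. Their endothelial part had group means of 8.26 in Wnt4-deleted and 7.89 in WT CD24 low cells, against 5.71 and 5.68 in CD24 high cells. The covariate therefore also takes up difference between fractions, and an endothelial source of Fzd4 was not tested. On arrays 9 to 16 only, the gene was called in Wnt4-deleted (1.01, adjusted p = 0.0247) and WT cells (1.32, adjusted p = 0.00891). Without array 3 it was called in both as well (adjusted p = 0.0442 and 0.0316). In WT cells it was also called with array weights (0.0204) and with the runs of title numbers as a block (0.00639).

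Fzd10, studied mainly in the embryonic limb and nervous system, read 7.42, 6.02 and 5.50 in Wnt4-deleted CD24 low cells and 5.92, 6.33 and 6.03 in Wnt4-deleted CD24 high cells. In WT cells it read 7.0, 6.02 and 6.23 in CD24 low and 6.44, 5.89 and 5.77 in CD24 high cells. The highest values, on arrays 3 and 1, belonged to the arrays with the high skeletal muscle marker means of 8.05 and 7.09. Among CD24 low arrays, arrays 3 and 1 also had the highest myoepithelial (11.23 and 11.26), luminal (9.17 and 8.98) and Schwann marker means (8.8 and 8.84). Both arrays belong to the same run of title numbers as well, so run and cell content cannot be told apart there. Whether muscle RNA contributed was not tested. Its change between fractions was 0.22 (SE 0.42, adjusted p = 0.812) in Wnt4-deleted cells and 0.39 (SE 0.42, adjusted p = 0.665) in WT cells, and on arrays 9 to 16 only it was -0.42 and 0.30. Over the 24 alternatives it ranged from -0.42 to 1.3 in Wnt4-deleted cells and from 0.1 to 1.3 in WT cells. Fzd9, which acts in bone formation and B cell development in mice, stayed between 5.40 and 6.05 on all arrays, with log2 changes of -0.03 (95% interval -0.35 to 0.29) and 0.24 (-0.08 to 0.56) in Wnt4-deleted and WT cells.

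**Figure D3:**
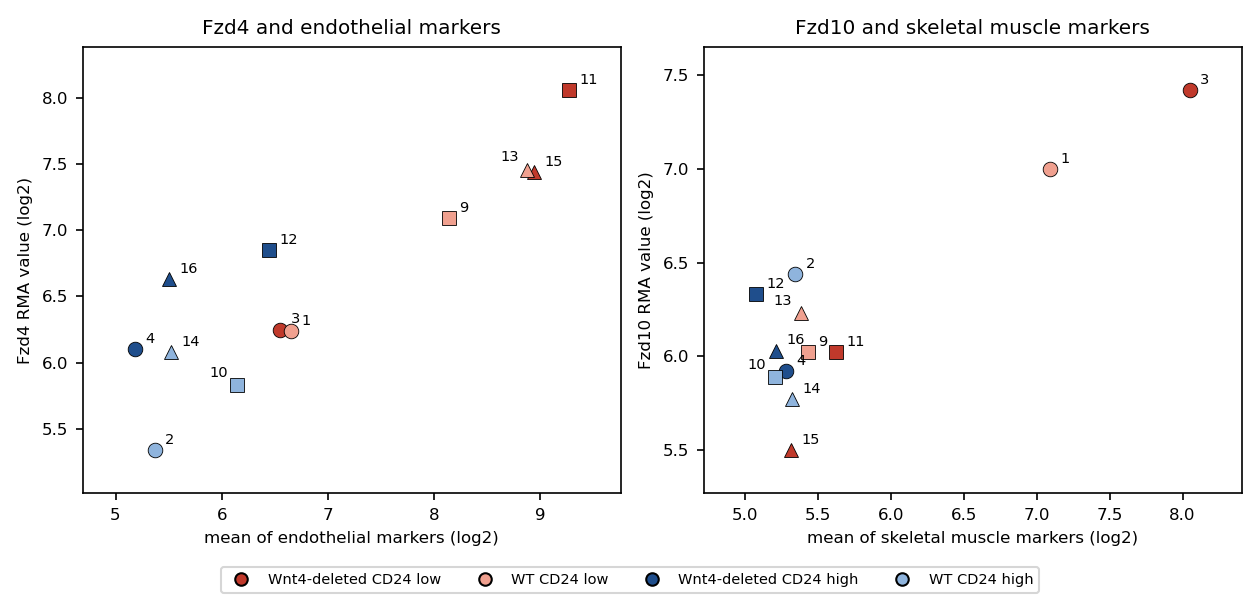
Fzd4 against the mean of 10 endothelial markers (left) and Fzd10 against the mean of 7 skeletal muscle markers (right), both on the log2 scale, 1 point per array with its title number. Array 11 is highest on both axes at left (8.06 and 9.27), and arrays 3 and 1 stand apart at right, with Fzd10 at 7.42 and 7.0.

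The next question was whether deleting Wnt4 altered the receptors in the fraction that had most of them. In CD24 low cells no Frizzled gene was called between Wnt4-deleted and WT cells, and all adjusted p-values were 1 (limma), while 1 of the 19938 genes (0.00502%) was called. At an unadjusted p under 0.05 there were 2 members, Fzd8 and Fzd2, both lower in Wnt4-deleted cells, where 3.06% of all genes passed. Those 2 were also the members whose arrays did not overlap, and 4.12% of all genes were lower without overlap. The family median was -0.21, against -0.02 over all genes.

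Fzd8 in CD24 low cells read 6.81, 6.76 and 5.72 in Wnt4-deleted and 7.33, 7.44 and 7.33 in WT cells. Each Wnt4-deleted array was below each WT array, and array 15 was far below the other two. The log2 change was -0.94 (SE 0.24, 95% interval -1.46 to -0.41, 1.92-fold lower, unadjusted p = 0.00234), which put the gene at rank 24 of all genes by p. Taken within runs of title numbers (1 to 4, 9 to 12 and 13 to 16) it was -0.52, -0.68 and -1.61. Without array 15 it was -0.58.

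Fzd2 read 7.30, 7.34 and 7.12 in Wnt4-deleted CD24 low cells and 7.69, 7.74 and 8.17 in WT CD24 low cells. Again the groups were separate, here with array 13 as the high WT value. The log2 change was -0.61 (SE 0.19, 95% interval -1.03 to -0.20, 1.53-fold lower, unadjusted p = 0.00787, rank 79), and within runs it was -0.39, -0.40 and -1.06. Without array 13 it was -0.46.

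The other 8 members had overlapping groups in CD24 low cells. Fzd7 changed by -0.43 (95% interval -1.15 to 0.30), with array 15 as its lowest value here too, and Fzd1 by -0.30 (-0.99 to 0.38). Fzd3 gave -0.20, Fzd9 -0.22, Fzd10 -0.10 and Fzd5 -0.08, while Fzd6 gave 0.05 and Fzd4 0.32. The widest interval was that of Fzd4, -0.64 to 1.28, and that of Fzd10 was -1.04 to 0.83.

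In CD24 high cells, the fraction in which Wnt4 itself was lower in Wnt4-deleted mice, no member was called and none had an unadjusted p under 0.05, a level that 1.99% of all genes passed. The groups of 3 members did not overlap, where 7% of all genes had no overlap. Fzd4 read 6.10, 6.85 and 6.63 in Wnt4-deleted cells and 5.34, 5.83 and 6.08 in WT cells. The lowest Wnt4-deleted array was only just above the highest WT array. The log2 change was 0.78 (SE 0.44, 95% interval -0.18 to 1.74), and it was 0.77, 1.02 and 0.56 within runs. The endothelial marker means of the same arrays were 5.18, 6.45 and 5.50 in Wnt4-deleted and 5.37, 6.14 and 5.52 in WT cells.

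Fzd8 was lower in Wnt4-deleted CD24 high cells as well, with 5.72, 5.50 and 5.49 against 6.0, 5.95 and 5.79 in WT cells. The difference was -0.34 (SE 0.24, 95% interval -0.87 to 0.18) and had the same sign in all 3 runs (-0.28, -0.44 and -0.30). Fzd6 read 8.19, 8.41 and 8.16 in Wnt4-deleted and 8.15, 8.14 and 8.06 in WT cells, a change of 0.14 (95% interval -0.17 to 0.44). The remaining 7 members lay between -0.09 for Fzd5 and 0.14 for Fzd2. Among them were Fzd7 at 0.02 (-0.70 to 0.75), Fzd1 and Fzd3 at -0.02, Fzd9 at 0.05 and Fzd10 at 0.06.

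**Figure D4:**
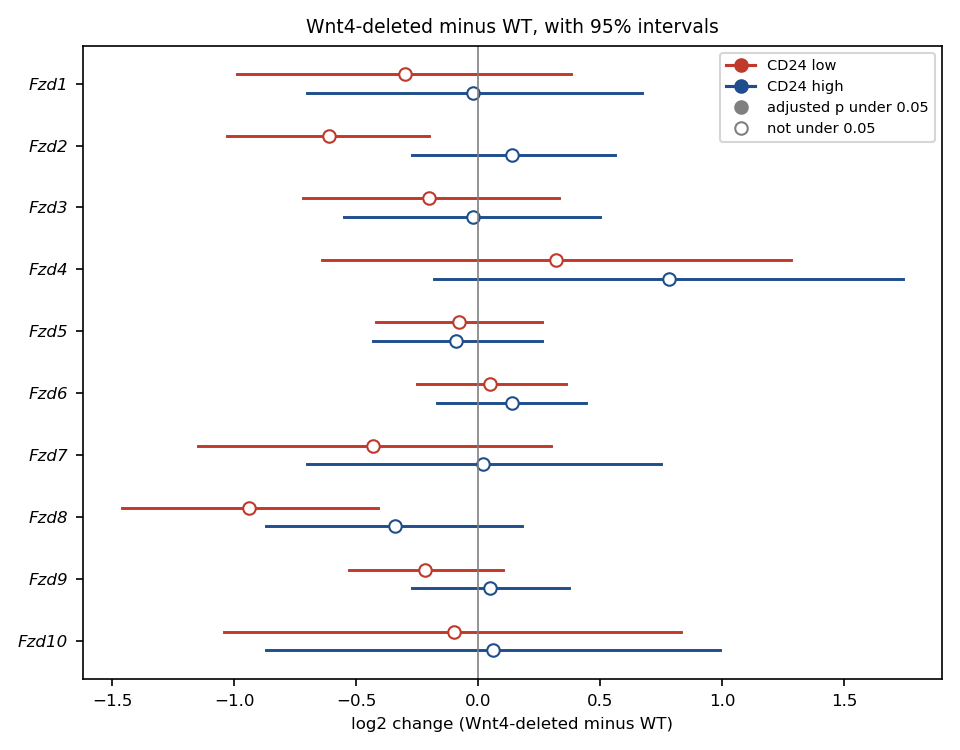
Log2 change of each Frizzled gene between Wnt4-deleted and WT cells, with its 95% interval, in CD24 low cells (red, above) and CD24 high cells (blue, below). All points are open, since none is called. The intervals of Fzd2 and Fzd8 in CD24 low cells do not include 0 (changes of -0.61 and -0.94).

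Whether the effect of Wnt4 differed between the fractions was tested as an interaction. No member was called, and 0% of all genes were. At an unadjusted p under 0.05 there was 1 member, Fzd2, against 1.37% of all genes. Its term, the effect in CD24 low cells minus that in CD24 high cells, was -0.76 (SE 0.27, 95% interval -1.35 to -0.17, unadjusted p = 0.0163). The same term was -0.59 (-1.34 to 0.15) for Fzd8, -0.46 for Fzd4, -0.45 for Fzd7, -0.29 for Fzd1, -0.27 for Fzd9, -0.17 for Fzd3 and Fzd10, -0.08 for Fzd6 and 0.01 for Fzd5. The comparisons above share arrays, so this term holds the same data as the 2 fraction differences of each gene.

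The order of the 4 groups followed from these values. For Fzd1, Fzd2, Fzd3, Fzd7 and Fzd8, and for Fzd5 and Fzd10, WT CD24 low cells had the highest mean and Wnt4-deleted CD24 low cells the second. The arrays of these neighbours in the order were separate for Fzd2 (means of 7.25 in Wnt4-deleted and 7.87 in WT cells) and Fzd8 (6.43 and 7.37), and overlapped for Fzd1, Fzd3, Fzd5, Fzd7 and Fzd10. For Fzd4 the highest mean was that of Wnt4-deleted CD24 low cells, 7.25, and the lowest that of WT CD24 high cells, 5.75. For Fzd5, Fzd9 and Fzd10 every pair of neighbours overlapped.

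Genes with the most similar profile over the 12 arrays were listed for the 5 called members by Pearson's r. These are descriptions across 12 arrays that share the fraction difference. Fzd7 was nearest to the taurine transporter Slc6a6 (0.986), the kainate receptor subunit Grik3 (0.983) and the laminin-binding Bcam (0.980). Fzd3 was nearest to Crtap (0.988), the basal keratin Krt17 (0.986) and Elovl4 (0.985). Fzd1 was nearest to Lbh (0.987), St6gal1 (0.976) and the collagen chaperone Serpinh1 (0.973). Fzd2 had Lfng, a glycosyltransferase that modifies Notch, at 0.996, then Gpr153 (0.970) and Ccdc102a (0.967). For Fzd8 they were Tgif2 (0.964), Adgrl2 (0.961) and the polarity protein Scrib (0.960). After each group's mean was subtracted, Lfng was again first for Fzd2 (0.968) and Lbh was again among the nearest for Fzd1 (0.964). None of the 3 names above recurred for Fzd3, Fzd7 or Fzd8. Both rankings take the highest r among all genes on the same 12 arrays, so a name that recurs is not separate evidence.

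Other genes of the pathway were read from lists of ligands, partners and regulators. Beside each count stand the shares of all genes called higher in CD24 low cells, 8.22% in Wnt4-deleted and 8.21% in WT mice. The shares called lower were 8.23% and 7.93%. Of 8 co-receptors and other Wnt receptors, 2 rose in CD24 low over CD24 high cells in Wnt4-deleted mice and 4 in WT mice, and none fell. These were Ror1, a receptor kinase for Wnt5a, with log2 changes of 1.01 in Wnt4-deleted and 1.58 in WT cells, Ryk (0.67 and 1.0), and, in WT cells, the polarity protein Ptk7 (1.28) and the co-receptor Lrp6 (0.73). Lrp6 in Wnt4-deleted cells was 0.46 (adjusted p = 0.128). Lrp5 was at 0.26 in Wnt4-deleted cells and 0.44 in WT cells and not called.

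Of 5 secreted inhibitors that carry a Frizzled-like domain, Sfrp1 (3.80 in Wnt4-deleted and 3.59 in WT cells) and Sfrp2 (2.87 and 1.96) rose in CD24 low cells. Among 9 genes of Frizzled turnover, 3 rose in Wnt4-deleted cells and 5 in WT cells. They included the R-spondin receptors Lgr5 (4.93 and 4.97) and Lgr4 (2.12 and 2.29) and the ligase Rnf43 (0.64 and 0.83), which removes Frizzled from the membrane. Znrf3, its partner, gave 0.79 (adjusted p = 0.0588) in Wnt4-deleted cells and 1.11 in WT cells, where it was called. The R-spondin Rspo1 was lower in CD24 low cells without overlap but not called. It gave -1.54 (adjusted p = 0.0608) in Wnt4-deleted and -1.37 (adjusted p = 0.0983) in WT cells.

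Among 6 measured partners of Fzd4 in Norrin and Wnt7 signalling, 3 rose and 1 fell in CD24 low cells, in either genotype. The Wnt7 co-receptors Reck (1.49 in Wnt4-deleted and 1.60 in WT cells) and Adgra2 (1.0 and 0.89) and the ligand Ndp, which encodes Norrin (1.03 and 0.68), rose, and Wnt7b fell (-1.16 and -1.37). The tetraspanin Tspan12, which aids Norrin signalling at Fzd4, was at -0.04 and 0.16.

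Of 19 Wnt ligands, Wnt10a (1.55 in Wnt4-deleted and 1.96 in WT cells) and Wnt11 (1.41 and 1.96) rose in CD24 low cells in both genotypes, Wnt9a (0.44) in WT cells, and, besides Wnt7b in both, Wnt4 fell in WT cells (-1.13, adjusted p = 0.00204). The Wnt4 difference in Wnt4-deleted cells was -0.07. Of 14 feedback targets of the β-catenin branch, 7 rose in Wnt4-deleted and 8 in WT cells. Axin2, a negative regulator, gave 0.81 and 1.32, the secreted inhibitor Wif1 1.53 and 2.61, and Nkd1, which binds Dishevelled, 2.02 and 2.39. Among 19 measured transducers of the Dishevelled and β-catenin branch, 4 rose and 1 fell in Wnt4-deleted cells. In WT cells 5 rose and 2 fell. Tcf7l1 (1.78 in Wnt4-deleted and 1.7 in WT cells), Pygo1 (0.84 and 0.76) and Gsk3a (0.64 and 0.83) rose. Apc fell in both genotypes (-0.85 and -0.71), and Csnk1e fell in WT cells (-0.72).

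**Figure D5:**
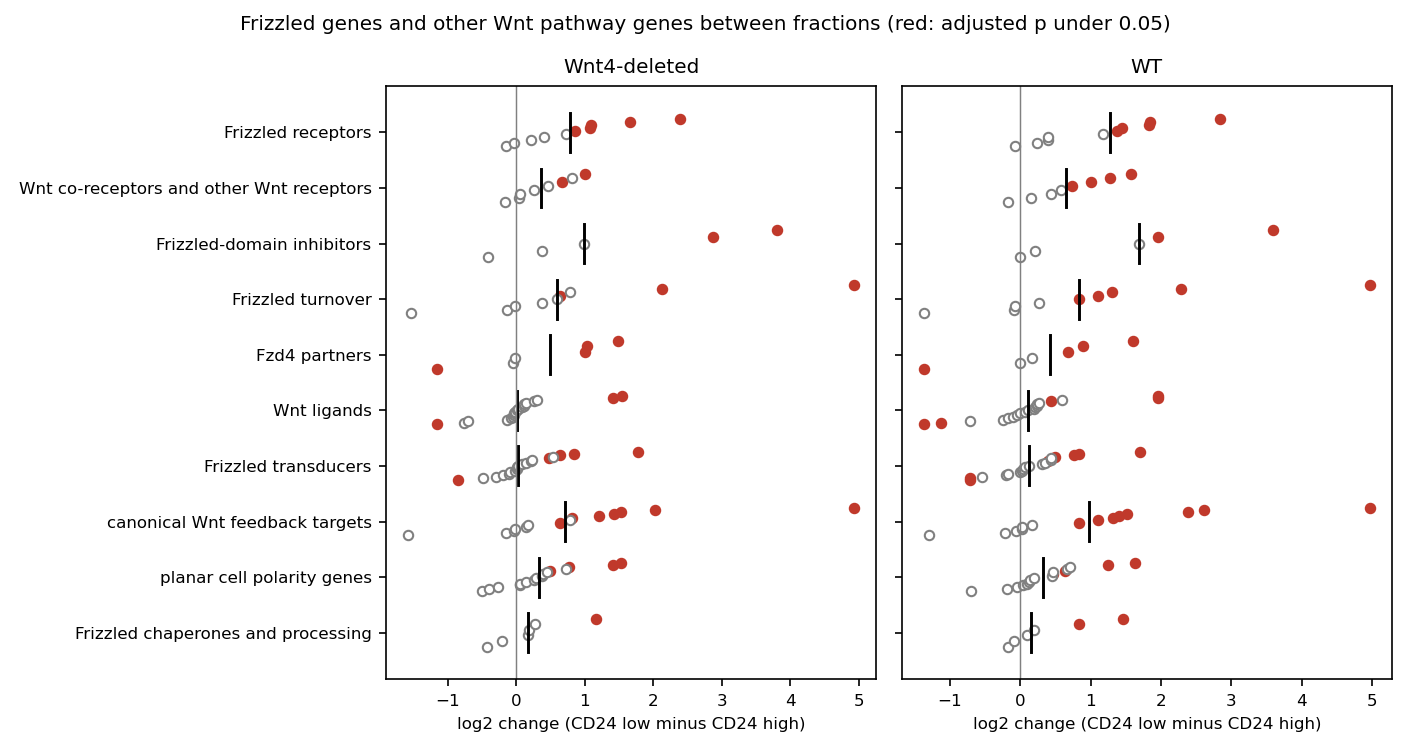
Log2 change between CD24 low and CD24 high cells of each measured gene in 10 lists of the Wnt pathway, in Wnt4-deleted cells (left) and WT cells (right). Red points are called and black bars give list medians, which were 0.79 and 1.28 for the Frizzled receptors. The rightmost point is Lgr5, at 4.93 and 4.97, which stands in both the turnover and the feedback list.

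None of these pathway genes was called between Wnt4-deleted and WT cells in either fraction. In CD24 low cells all 14 feedback targets had values below 0, with a median of -0.34, against -0.02 over all genes. In CD24 high cells 1 of the 14 was above 0, with a median of -0.18, against -0.03 over all genes, and Axin2 gave -0.36. In CD24 low cells Axin2 gave -0.87 (SE 0.21, unadjusted p = 0.00171, rank 14) and Wif1 -1.33 (SE 0.33, unadjusted p = 0.00191, rank 17), both without overlap, as did Lgr6, an R-spondin receptor, at -1.26 (SE 0.35, unadjusted p = 0.00384, rank 39). These ranks stand beside those of Fzd8 and Fzd2, and the adjusted p was 1 for each of the 5 genes. The co-receptors had a median of -0.13, with Lrp6 and Lrp5 both at -0.13.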

How the data were processed

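RNA of sorted cells was amplified, labelled and hybridised to Affymetrix arrays. Per the labels, the authors summarised the arrays with RMA in Affymetrix Expression Console 1.1.2800, and the deposited table holds these log2 values, already background-corrected and quantile-normalised; RMA compresses differences near background. Of 35556 probesets, 21789 had 1 gene symbol in the platform annotation, 1621 had several and 12146 had no entry. Per symbol, the probeset with the highest mean was kept, which gave 19938 genes. The 10 Frizzled members and the gene lists were chosen with earlier results of these data known.

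One limma 3.58.1 model (R 4.3.3) held the 4 groups, with empirical Bayes moderation (8 residual degrees of freedom) and Benjamini-Hochberg adjustment over all genes. A gene was called at an adjusted p under 0.05. Tests were two-sided, and the procedure was tested on simulated data. The text names all 10 members and Wnt4 in each comparison, the 3 genes with the highest r for each called member (predicted and small-RNA genes are passed over, which was 1 gene for Fzd2) and up to 3 called genes per pathway list and direction. Lrp5, Lrp6, Tspan12, Rnf43, Znrf3, Rspo1, Daam1, and all pathway genes given between genotypes or beyond those 3, were named after their values were seen. Arrays have no sequencing depth, and 3 arrays per group limit the precision. Alternatives changed the normalisation, filter, probeset rule, variance model, arrays included, block and covariate. The covariate was the mean of endothelial, fibroblast and immune markers on each array, a level that differed between the fractions. Promoter windows came from RefSeq (GRCm38.p6); protein sequences were not analysed here.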

Additional observations from a re-analysis of the deposited data

How the results depend on the processing

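Fzd2, Fzd3 and Fzd7 in both genotypes, and Fzd1 and Fzd8 in WT cells, stayed called between fractions under all 24 alternatives; Fzd1 and Fzd8 in Wnt4-deleted cells did not. The number of members called in Wnt4-deleted cells was 3 on the arrays of the compared groups only, and 3 to 6 when single arrays were left out, with 3 without array 12 or array 16. No member was called between genotypes under any alternative. The groups share no replicate numbers, but each run of title numbers holds 1 array of every group, and the runs were fitted as a fixed block. That paired fit made Fzd4 called in WT cells (adjusted p = 0.00639) and changed no other call of a member. The cause of the changes was not tested.

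All other changes of sign were in differences that were not called. Between fractions in Wnt4-deleted cells, Fzd9 turned to 0.03 with array weights and 0.04 on arrays 9 to 16 only, Fzd10 to -0.42 on arrays 9 to 16, and Fzd4 to -0.51 with the non-epithelial covariate. Between genotypes, Fzd10 in CD24 low cells turned to 0.01 with that covariate. In CD24 high cells Fzd1 turned to 0.01 after median centring, and Fzd7 to -0.01 after a second quantile normalisation, -0.08 with array weights and -0.28 on arrays 9 to 16. The interaction turned to -0.01 (median centring) and -0.22 (arrays 9 to 16) for Fzd5, and to 0.12 (array weights) for Fzd1.

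Leaving out single arrays gave these ranges where a sign changed. Between fractions they were -0.14 to 0.03 for Fzd9 and -0.33 to 0.63 for Fzd10 in Wnt4-deleted cells, and -0.22 to 0.04 for Fzd6 in WT cells. Between genotypes in CD24 low cells they were -0.40 to 0.04 for Fzd3, -0.09 to 0.82 for Fzd4, -0.23 to 0.07 for Fzd5, -0.05 to 0.20 for Fzd6 and -0.66 to 0.30 for Fzd10. In CD24 high cells they were -0.37 to 0.23 for Fzd1, -0.07 to 0.26 for Fzd2, -0.25 to 0.11 for Fzd3, -0.31 to 0.27 for Fzd7, -0.07 to 0.13 for Fzd9 and -0.07 to 0.26 for Fzd10. For the interaction they were -0.58 to 0.07 for Fzd1, -0.37 to 0.07 for Fzd3, -0.87 to 0.04 for Fzd4, -0.15 to 0.16 for Fzd5, -0.19 to 0.06 for Fzd6 and -0.72 to 0.24 for Fzd10.

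Over all genes, the number called between fractions was 5215 with array weights, against 3218, in WT cells. In Wnt4-deleted cells it was 2071 with the covariate and 2156 without array 16, against 3278. Between genotypes it was 0 on arrays 9 to 16 in either fraction, and in CD24 low cells 0 on the compared groups only and 2 without array 3, against 1.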

Other observations

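Planar cell polarity genes, which act with Frizzled receptors to orient cells in a sheet, were also read between fractions. In CD24 low over CD24 high cells 4 of 16 were called higher in each genotype and none lower. Of all genes, 8.22% were called higher in Wnt4-deleted and 8.21% in WT cells. Daam1 was lower without overlap in WT cells (-0.7, adjusted p = 0.0548) but not called. Prickle2 gave log2 changes of 1.41 in Wnt4-deleted and 1.63 in WT cells, and Daam2, a formin that links Dishevelled to actin, gave 1.53 and 1.25. Of 6 measured genes for chaperoning and processing, Shisa4 was higher in both genotypes (1.16 and 1.46). Wls, which carries Wnt proteins to the cell surface, was higher in WT cells (0.83, adjusted p = 0.00508) and gave 0.28 (adjusted p = 0.318) in Wnt4-deleted cells. Between genotypes in CD24 high cells Wls gave 0.61 (SE 0.16, unadjusted p = 0.00329, adjusted p = 1, rank 18), with no overlap of the arrays. In the same comparison Wnt4 itself had rank 2.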
